A study of Mus musculus with 10 samples.

Results

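Interleukin-6 belongs to a family of cytokines that signal through the shared receptor chain gp130, and the transcripts of this family were examined in the lesioned hippocampus with and without myelin-specific T cells. The members were the ligands Il6, Osm, Lif and Cntf, the receptor chains Il6ra, Il6st, Osmr and Lifr, the transcription factor Stat3 and its feedback inhibitor Socs3. Every probe set whose only gene symbol was 1 of these 10 genes was taken, which gave 23 of the 45037 probe sets tested and covered 9 genes. Cntf, ciliary neurotrophic factor, is represented by 1 probe set that also lists other genes, so it is not analysed here.

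The series compared 2 groups of 5 female SJL/J mice, obtained at 8 to 10 weeks of age, by expression arrays of whole hippocampi. In the TPlp+AxL group, T cells specific for proteolipid protein (Plp), a major myelin protein, were transferred into the mice and an axonal lesion followed. In the AxL group the lesion was made without transferred cells. Both groups were studied 2 days after the lesion, so both carry its effects, and no unlesioned hippocampus was analysed here. The labels give neither the site of the lesion nor the number of cells transferred, and they do not say that the AxL mice received other cells in their place. Each array is 1 mouse, so each p-value sets the difference between the groups against the spread between these mice. The test used, limma, takes 1 spread for both groups and draws it toward that of all probe sets.

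Family cytokines bind a private receptor chain, such as the interleukin-6 receptor encoded by Il6ra, and then the shared chain gp130, encoded by Il6st. Janus kinases attached to the chains phosphorylate Stat3, which enters the nucleus and induces target genes. One of these targets is Socs3, whose protein binds the receptor complex and ends the signal. In the injured brain, astrocytes, microglia and infiltrating leukocytes are known sources and responders.

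Among all probe sets, 291 were higher and 85 lower in TPlp+AxL at an adjusted p under 0.05 in limma, a share of 0.835% (0.646% higher). The split was 269 and 210 after subtraction of each array's median. These medians ran from 7.903 to 7.920 in TPlp+AxL and from 7.875 to 7.900 in AxL, without overlap. Leaving out TPlp+AxL 4 gave a total of 185, leaving out AxL 5 gave 220, and leaving out TPlp+AxL 3 or 5 gave 240 or 243. Choroid plexus markers stood apart in TPlp+AxL 1, AxL 3 and AxL 5, with list means of 9.46, 10.16 and 9.32 on the log2 scale, against 8.11 to 8.23 in the other 7 arrays. With these 3 arrays left out together, 1 probe set passed in limma, while 4743 had an unadjusted p under 0.05. Hippocampal neuron markers were bright in every array, with list means of 10.26 to 10.45 in TPlp+AxL and 10.23 to 10.57 in AxL. The deposited values carry no detection calls, so no value could be placed above or below background.

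Of the 23 member probe sets, 4 passed the threshold, all higher in TPlp+AxL, where 0.646% of all probe sets were higher. They were the single Il6 probe set and all 3 Socs3 probe sets. In 3 of the 23 every TPlp+AxL mouse lay above every AxL mouse, where 1.94% of all probe sets were higher without overlap and 3.59% did not overlap in either direction. The median log2 change of the 23 was 0.06, against -0.0034 over all probe sets. A positive change was seen in 19 of the 23, against 48.3% of all probe sets, in the deposited values. It was seen in 16 of the 23 after repeated quantile normalization, against 45.9% of all probe sets, and in 16 after subtraction of the median, against 34.0%. The 19 probe sets that did not pass had changes of at most 0.36 in size and adjusted p-values of 0.144 to 0.9903.

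**Figure D1:**
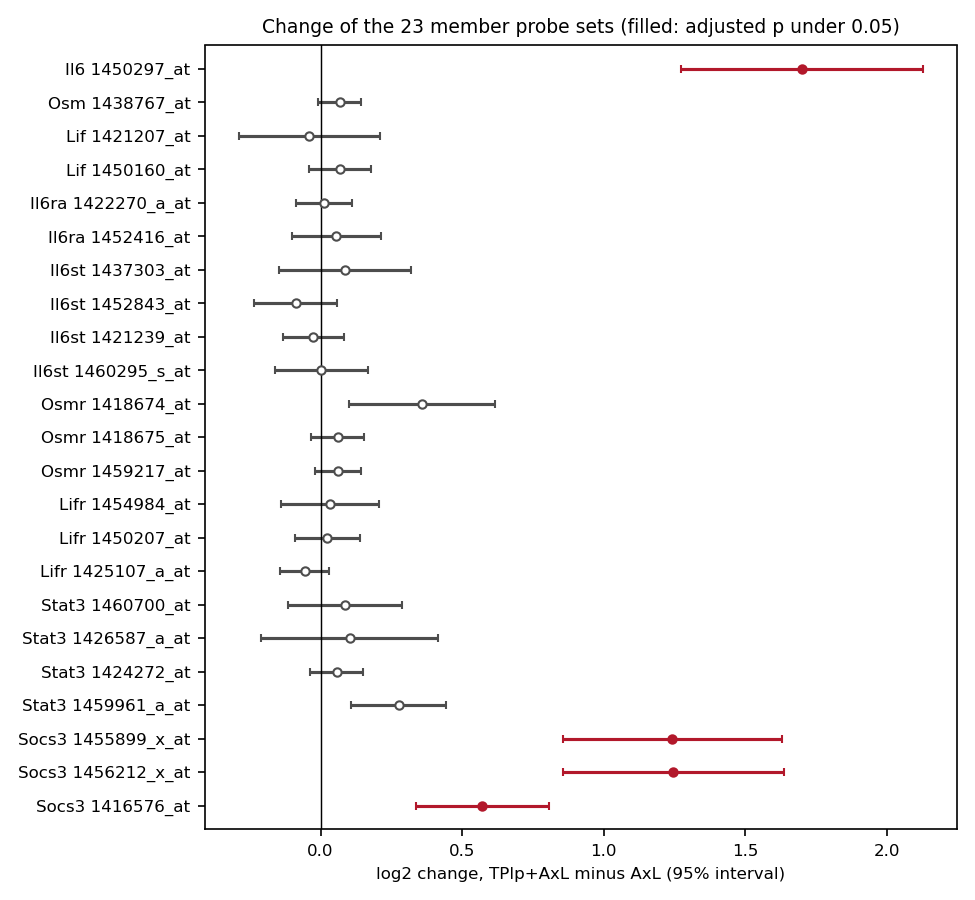
Log2 change of the 23 member probe sets, TPlp+AxL minus AxL, with 95% intervals from limma. Filled points passed the threshold. The Il6 probe set lies at 1.70 and the 3 Socs3 probe sets at 1.24, 1.24 and 0.57, while the other intervals lie below 0.62.

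Il6 encodes interleukin-6, the namesake ligand, which leukocytes, microglia and astrocytes secrete during inflammation. Its promoter is shown because Il6 had the largest change of the members. The sequence is RefSeq's window from 250 bases before to 50 bases after the gene start (GRCm38.p6, chr5:30012864-30013163, plus strand), with motif matches in capitals.
Il6: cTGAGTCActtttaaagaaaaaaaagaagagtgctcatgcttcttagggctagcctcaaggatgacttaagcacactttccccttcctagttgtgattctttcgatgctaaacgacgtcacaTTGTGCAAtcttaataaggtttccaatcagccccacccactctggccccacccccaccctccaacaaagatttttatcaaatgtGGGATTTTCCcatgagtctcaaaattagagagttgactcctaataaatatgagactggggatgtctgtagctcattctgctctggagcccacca
The capitals mark, from the 5′ end, an AP-1 match (TGAGTCA), a C/EBP match (TTGTGCAA) and an NF-kB match (GGGATTTTCC), of which the last begins 44 bases before the start.

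Il6 had log2 values of 8.31, 7.52, 8.33, 8.96 and 8.38 in TPlp+AxL mice 1 to 5, against 6.57, 6.60, 6.63, 6.55 and 6.65 in AxL mice 1 to 5. Each TPlp+AxL mouse lay above each AxL mouse. The AxL mice fell within a narrow band, while the TPlp+AxL mice spread widely, with mouse 2 lowest and mouse 4 highest. The means were 8.30 ± 0.51 in TPlp+AxL and 6.60 ± 0.04 in AxL (SD, n = 5 each). The log2 change was 1.70 (SE 0.19, 95% interval 1.27 to 2.13), a 3.25-fold difference (limma adjusted p = 0.00221). The change ran from 1.53 to 1.89 with 1 array left out, and the adjusted p from 1.63e-05 to 0.0117. Without the 3 arrays rich in choroid plexus markers the change was 1.72 (limma adjusted p = 0.134), with 4 mice against 3. By its mean, the Il6 probe set ranked at the 60.4th percentile of all probe sets in TPlp+AxL and at the 7.95th percentile in AxL. Probe sets differ in affinity, so this places the signal in the table and does not measure transcript abundance. Without detection calls it is not known whether the AxL signal is above background, and if it is not, the fold is only a lower limit.

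The other ligands showed no such separation. Osm encodes oncostatin M, a product of activated leukocytes. Its probe set ranged from 7.60 to 7.69 in TPlp+AxL and from 7.53 to 7.65 in AxL. The groups overlapped, with a limma adjusted p = 0.403 for a difference of 0.07 (95% interval -0.01 to 0.14). Lif encodes leukemia inhibitory factor, a gp130 cytokine that astrocytes make after injury. Its brighter probe set (1421207_at) had 8.43, 8.24, 8.39, 8.41 and 8.30 in TPlp+AxL, against 8.31, 8.10, 8.46, 8.84 and 8.26 in AxL. AxL 4 was the highest of all 10 mice and the TPlp+AxL range lay inside the AxL range. The limma adjusted p was 0.897 for a difference of -0.04 (95% interval -0.29 to 0.21), which turned to 0.073 without AxL 4 and to 0.029 with array weights. The dimmer Lif probe set (1450160_at) had a change of 0.07 (95% interval -0.04 to 0.18). In RefSeq's gene table Osm and Lif are neighbouring genes on chromosome 11.

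**Figure D2:**
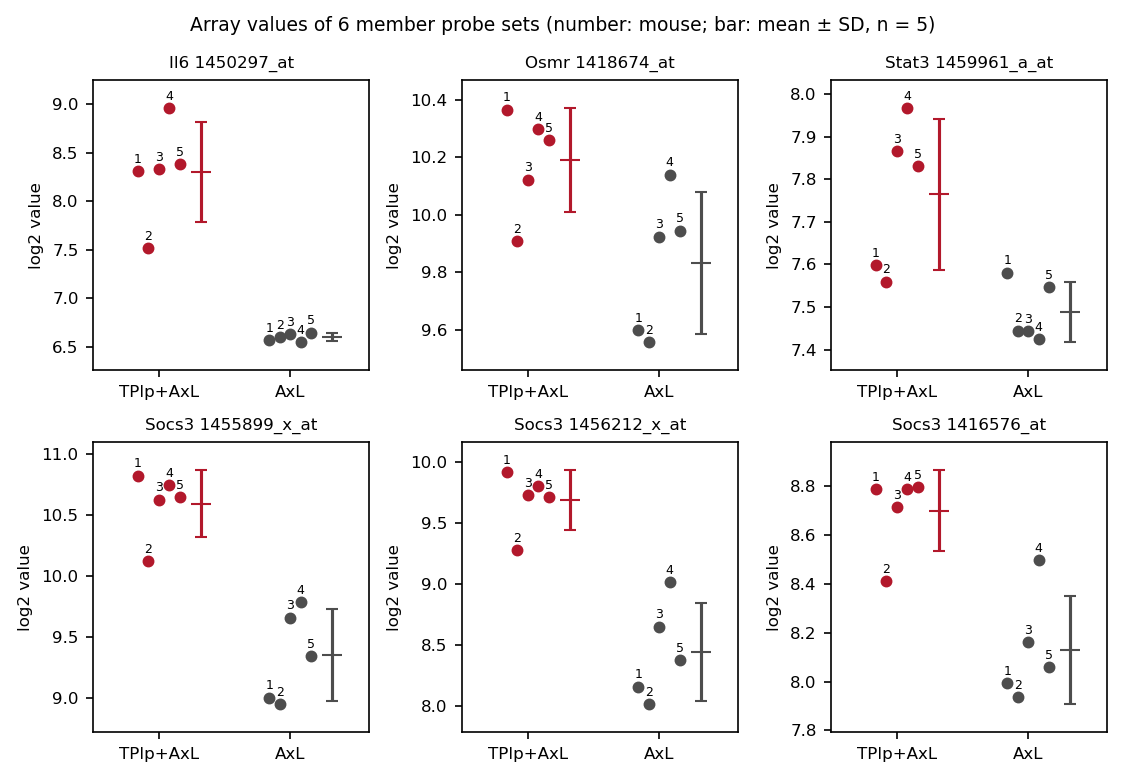
Log2 values of each mouse for the 4 member probe sets that passed and for the 2 with the next smallest p, 1 probe set each of Osmr and Stat3. Numbers are mice, and bars are the mean ± SD of 5 mice. The TPlp+AxL mice lie above all AxL mice in Il6 and in the 2 brighter Socs3 probe sets, and the groups overlap in the other 3 panels.

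Of the 12 receptor chain probe sets, 0 passed in limma, 1 had an unadjusted p under 0.05, and each had overlapping groups. Il6ra, the private chain for interleukin-6, had 2 probe sets with changes of 0.01 (95% interval -0.09 to 0.11) and 0.06 (95% interval -0.10 to 0.21). The first of these turned negative under median subtraction, repeated quantile normalization and array weights. The 4 probe sets of Il6st, the gp130 gene, had changes from -0.09 to 0.09. The brightest of them (1437303_at) ranged from 9.74 to 10.14 in TPlp+AxL and from 9.50 to 10.06 in AxL, and its change of 0.09 had a 95% interval of -0.15 to 0.32. The intervals of the Il6ra and Il6st probe sets thus leave out any log2 change of signal above 0.32. Some of these probe sets were dim, with Il6st 1421239_at and 1460295_s_at at the 27.7th and 13.7th percentiles. RMA compresses changes of dim probe sets, so a larger change of transcript is not excluded.

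Osmr encodes the oncostatin M receptor chain, which pairs with gp130 and is itself induced by gp130 cytokines. Its brightest probe set (1418674_at) had 10.37, 9.91, 10.12, 10.30 and 10.26 in TPlp+AxL, against 9.60, 9.56, 9.92, 10.14 and 9.95 in AxL. TPlp+AxL mouse 2 lay below 3 of the AxL mice, and AxL 4 lay above TPlp+AxL mice 2 and 3. The change was 0.36 (SE 0.12, 95% interval 0.10 to 0.62, limma adjusted p = 0.213). It passed after quantile normalization was repeated (0.43, limma adjusted p = 0.0454), and over all other alternatives the adjusted p was 0.0528 or more. The 2 dimmer Osmr probe sets had changes of 0.06 each, with 95% intervals of -0.03 to 0.15 and -0.02 to 0.14. Lifr, the receptor chain for leukemia inhibitory factor and the neighbour of Osmr on chromosome 15 in RefSeq's gene table, had 3 probe sets with changes of 0.03, 0.02 and -0.06. Its brightest probe set (1454984_at) ranged from 10.08 to 10.50 in TPlp+AxL and from 10.13 to 10.36 in AxL.

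Stat3, the transcription factor at the end of the receptor pathway, had 4 probe sets, and 0 passed in limma, with 1 at an unadjusted p under 0.05. The brightest (1460700_at) had 10.23, 10.02, 10.29, 10.20 and 10.28 in TPlp+AxL, against 9.94, 9.93, 10.07, 10.42 and 10.24 in AxL. AxL 4 was the highest of the 10 mice, and the change was 0.09 (95% interval -0.12 to 0.29, limma adjusted p = 0.683). The probe set 1459961_a_at had 7.60, 7.56, 7.87, 7.97 and 7.83 in TPlp+AxL, against 7.58, 7.44, 7.44, 7.43 and 7.55 in AxL. All TPlp+AxL mice but mouse 2 lay above every AxL mouse, mouse 1 by a narrow margin. It had a change of 0.28 (SE 0.08, 95% interval 0.11 to 0.44), with a limma adjusted p = 0.144. The other 2 Stat3 probe sets had changes of 0.10 and 0.06. These arrays measure Stat3 mRNA and say nothing of its phosphorylation.

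Socs3 encodes the feedback inhibitor of gp130 receptors. Its promoter is shown because all of its probe sets passed, and it is the RefSeq window of the same length (GRCm38.p6, chr11:117969317-117969616, minus strand), with the motif match in capitals.
Socs3: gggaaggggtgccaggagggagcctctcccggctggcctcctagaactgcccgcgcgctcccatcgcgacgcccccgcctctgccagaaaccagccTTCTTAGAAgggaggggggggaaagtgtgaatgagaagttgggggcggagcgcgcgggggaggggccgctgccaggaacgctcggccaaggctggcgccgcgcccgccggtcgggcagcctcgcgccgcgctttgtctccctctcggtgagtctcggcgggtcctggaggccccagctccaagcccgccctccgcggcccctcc
The capitals mark a STAT match (TTCTTAGAA) that begins 154 bases before the start. The motifs searched on both strands were TTCNNNGAA for STAT factors, GGG and TTTCC with any 2 bases between for NF-kB, TTGNNCAA for C/EBP and TGANTCA for AP-1, chosen with these sequences in view. They occur in 8.3%, 1.63%, 6.4% and 7.81% of the 32851 RefSeq promoters of this length. RefSeq promoters were found for 9 of the 10 members. Socs3 was the member with a STAT match in its window and Il6 the member with an NF-kB or C/EBP match, while AP-1 matches also stood in the windows of Lif, Osmr and Cntf. A match describes letters in a window and is no evidence of a bound factor.

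The brightest Socs3 probe set (1455899_x_at) had 10.82, 10.12, 10.63, 10.74 and 10.65 in TPlp+AxL, against 9.01, 8.95, 9.66, 9.79 and 9.35 in AxL. The groups did not overlap, and TPlp+AxL mouse 2 was again the lowest of its group. The means were 10.59 ± 0.27 in TPlp+AxL and 9.35 ± 0.38 in AxL (SD, n = 5 each). The log2 change was 1.24 (SE 0.18, 95% interval 0.85 to 1.63), a 2.36-fold difference (limma adjusted p = 0.0078). The second probe set (1456212_x_at) had 9.92, 9.28, 9.73, 9.80 and 9.71 in TPlp+AxL, against 8.16, 8.01, 8.65, 9.02 and 8.38 in AxL. It gave the same order of high and low AxL mice, with mouse 4 highest and mouse 2 lowest, and a change of 1.24 (limma adjusted p = 0.00795). Both passed with any 1 array left out, with changes of 1.14 to 1.39.

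The third Socs3 probe set (1416576_at) had 8.79, 8.41, 8.71, 8.79 and 8.80 in TPlp+AxL, against 7.99, 7.94, 8.16, 8.50 and 8.06 in AxL. Here AxL 4 lay above TPlp+AxL 2, so the groups overlapped. The change was 0.57 (SE 0.11, 95% interval 0.34 to 0.81, limma adjusted p = 0.0327). This call was lost in limma without TPlp+AxL 1 (adjusted p = 0.0745), TPlp+AxL 3 (0.0872), TPlp+AxL 4 (0.106), TPlp+AxL 5 (0.0903), AxL 1 (0.0821), AxL 2 (0.0585), AxL 3 (0.0758) or AxL 5 (0.104), and with choroid plexus markers as a covariate (0.0649). The ending of the other 2 identifiers marks probe sets that may share sequence with other genes, and without them 2 member probe sets passed, Il6 and this one. Without the 3 arrays rich in choroid plexus markers, the Socs3 changes were 1.29, 1.23 and 0.54 (limma adjusted p = 0.165, 0.203 and 0.370).

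The mice were not uniform within a group. TPlp+AxL 2 was the lowest of its group in 12 of the 23 member probe sets, Il6 and all 3 of Socs3 among them, where it was lowest in 23.4% of all probe sets. AxL 2 was the lowest of its group in 13 of the 23, against 27.9% of all probe sets. AxL 4 was the highest of its group in 9 of the 23, against 29.9% of all probe sets. Those 9 included the 3 Socs3 probe sets, the brightest Osmr probe set, the 2 brightest Stat3 probe sets and the brighter Lif probe set, but not Il6, in which AxL 4 was lowest of all.

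**Figure D3:**
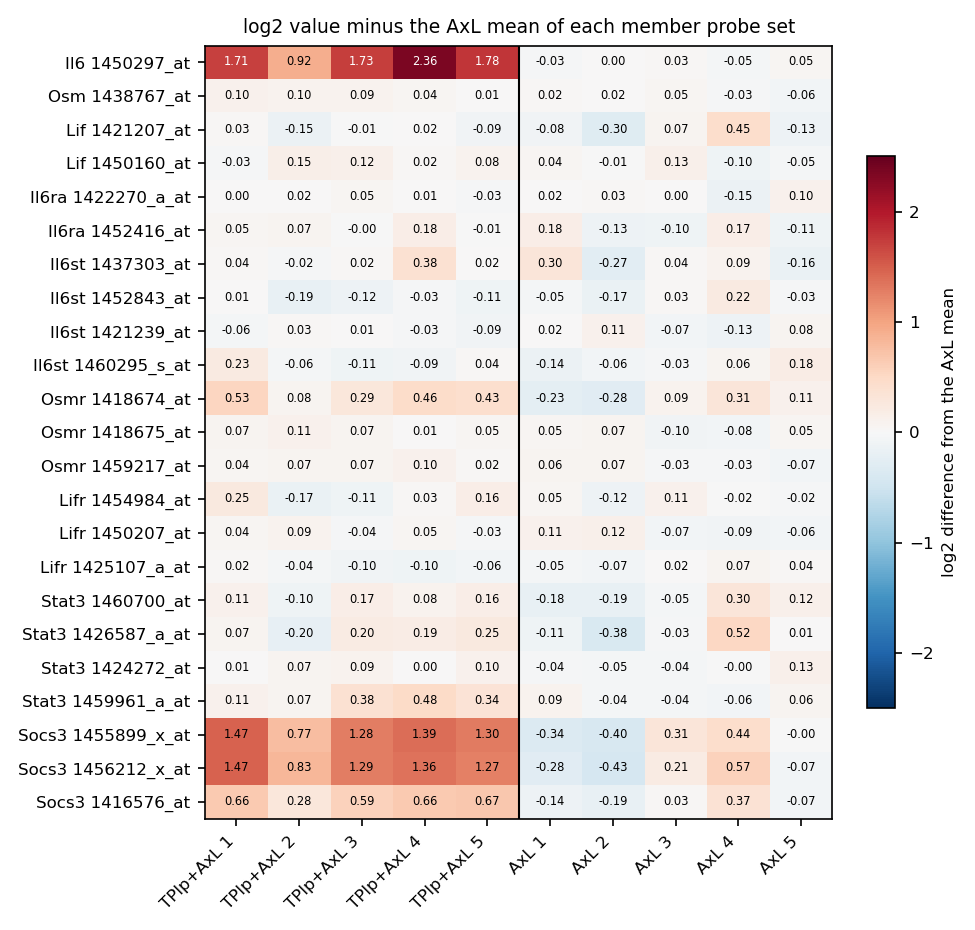
Log2 value of each mouse minus the AxL mean, for the 23 member probe sets in rows and the 10 mice in columns. Red is above and blue below the AxL mean. Il6 and Socs3 are raised in every TPlp+AxL mouse and least in mouse 2, at 0.92 for Il6.

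Some markers of cell types also differed between the groups. In the T cell list 2 of 8 measured markers rose in limma (Cd3d and Cd3g), where 0.978% of all genes rose. The summed linear signal of the list was 2028 to 2356 in TPlp+AxL and 1747 to 1920 in AxL. In the list of neutrophils and monocytes 4 of 9 rose (S100a8, S100a9, Plac8 and Chil3), against the same share of all genes. Mpo, Elane, Ngp, Camp and Ccr2 of that list did not pass, with changes of 0.03, 0.06, 0.08, -0.05 and 0.13. The sum of the list was 5358 to 7461 in TPlp+AxL and 2458 to 3132 in AxL. In the lists of astrocytes and of microglia and macrophages 0 of 8 markers each passed in limma, with 3 and 2 at an unadjusted p under 0.05. The 3 astrocyte markers had negative changes (Slc1a3 -0.12, Gja1 -0.17 and S100b -0.16), and the other 2 differed in sign (Aif1 0.40 and Cd68 -0.27). The sums were 33722 to 40267 in TPlp+AxL and 36916 to 41409 in AxL for astrocytes, and 12209 to 14011 in TPlp+AxL and 12541 to 14427 in AxL for microglia and macrophages. In the lists of endothelium, neurons and oligodendrocytes 0 of 8, 8 and 7 measured markers passed in limma, with 5, 5 and 4 at an unadjusted p under 0.05. Each of these markers had a negative change, with list medians of -0.14, -0.16 and -0.21. Over all probe sets the median change was also lower in brighter ones. It was -0.0046 at mean log2 values of 8 to 9, -0.06 at 9 to 10, -0.10 at 10 to 11, -0.11 at 11 to 12 and -0.14 above 12. The part of the listed cell types in the changes of Il6 and Socs3 was not tested. In whole tissue, a change in the number of cells and a change in RNA per cell cannot be told apart.

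The other genes of the pathway were taken from lists written with earlier results of these data known. Of 69 such genes 63 had a probe set, each represented by its brightest. Of the 63, 9 rose and 0 fell in limma, where 1.26% of all genes passed and 0.978% rose, and the median change was 0.06, against -0.03 over all genes. The count was 5 without TPlp+AxL 4 and 4 without AxL 5. The 9 genes were in the lists of Stat3 targets and of inducers of Il6, and 0 genes of the other 6 lists passed in limma. An unadjusted p under 0.05 was seen for 24 of the 63. Without the 3 arrays rich in choroid plexus markers 0 of the 63 passed in limma, with 20 at an unadjusted p under 0.05.

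**Figure D4:**
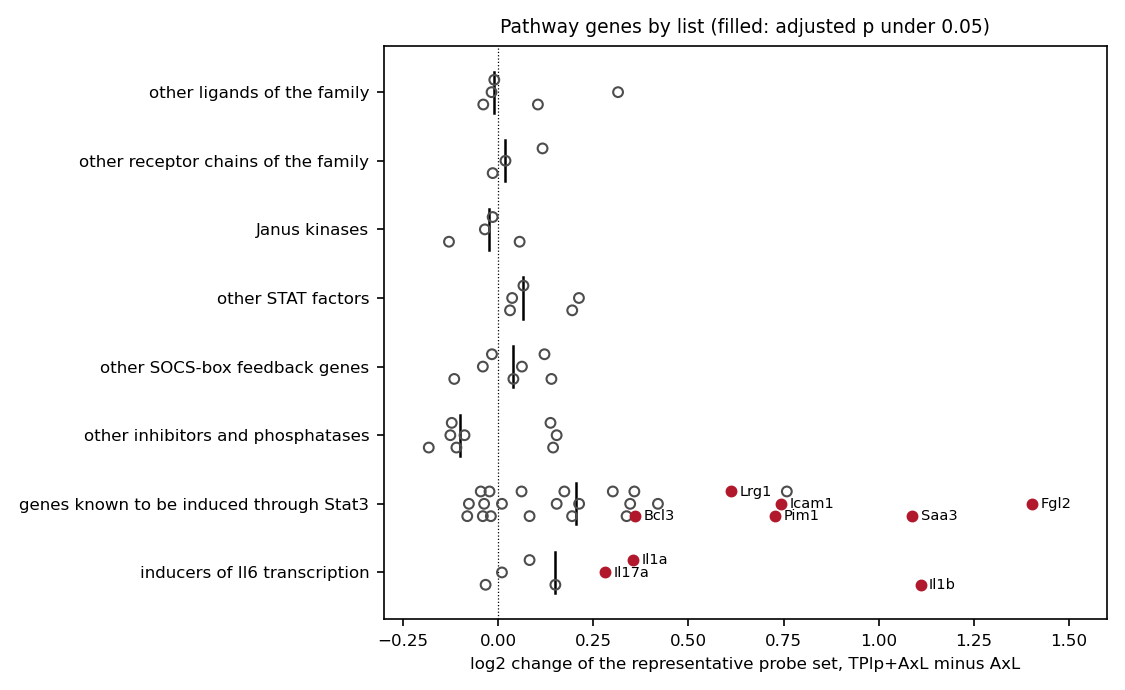
Log2 change of each pathway gene by its brightest probe set, TPlp+AxL minus AxL, in rows by list. Filled points passed the threshold, and vertical bars are list medians, which include Osmr among the Stat3 targets. The 9 filled points lie in the 2 lowest rows.

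Ligands and receptor chains of the family outside the members did not pass. Clcf1, a cardiotrophin-like ligand, had a change of 0.32 (95% interval 0.07 to 0.56, limma adjusted p = 0.245), with 7.84 to 8.14 in TPlp+AxL and 7.30 to 8.01 in AxL. Il11, another gp130 ligand, had 0.10 (limma adjusted p = 0.371). Il27ra, a gp130 partner for interleukin-27, had 0.12 (limma adjusted p = 0.200) with groups that did not overlap, as in 14 of the 63 genes and 4.55% of all genes. Il31ra had 0.02. Ctf2, Il27 and Il11ra1 are not analysed here.

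The kinases, other STAT factors and inhibitors had small changes. The Janus kinases Jak1 and Jak2 had changes of -0.13 (95% interval -0.41 to 0.15) and 0.06 (95% interval -0.09 to 0.20). The other Jak1 probe sets had -0.10 (95% interval -0.22 to 0.0097) and 0.29 (95% interval -0.09 to 0.67), so the Jak1 probe sets differed in sign. Stat4, which acts in T helper and natural killer cells, had 0.21 (95% interval 0.10 to 0.32, limma adjusted p = 0.0845), and it passed with trend and robust variance (0.0497) and with array weights (0.0285). Stat2, of the type I interferon pathway, had 0.19 (limma adjusted p = 0.203). Among the other 7 SOCS-box genes, Cish, a feedback gene of Stat5, had 0.14 (95% interval 0.05 to 0.23, limma adjusted p = 0.147). Socs7 had -0.12 (limma adjusted p = 0.302), which was positive after repeated quantile (0.0067) or cyclic loess normalization (0.00046). The phosphatases Ptpn6, of blood cells, and Ptpn2 had 0.15 (limma adjusted p = 0.122) and 0.14 (limma adjusted p = 0.307). Ptpn2 passed after repeated quantile (0.23, limma adjusted p = 0.0268) and cyclic loess normalization (0.23, limma adjusted p = 0.0278).

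Among 26 genes induced through Stat3 in other settings, Osmr included, 6 rose and 0 fell, with a median change of 0.20. Fgl2, a fibrinogen-like protein of T cells and macrophages, had 9.36, 8.71, 9.61, 9.51 and 9.32 in TPlp+AxL, against 7.88, 7.94, 7.71, 8.23 and 7.72 in AxL. Its change was 1.40 (SE 0.16, limma adjusted p = 0.0019), while its dimmer probe set had 0.33 (limma adjusted p = 0.0162). Saa3, an acute-phase serum amyloid, had 10.26 to 10.91 in TPlp+AxL and 8.98 to 10.17 in AxL, a change of 1.09 (SE 0.19, limma adjusted p = 0.0227). Icam1, an adhesion molecule for leukocytes, rose by 0.74 (SE 0.10, limma adjusted p = 0.00407). Pim1, a cytokine-induced survival kinase, rose by 0.73 (SE 0.12, limma adjusted p = 0.0161), while its second probe set had 0.11 and did not pass. The others that rose, named here after their values were seen, were Lrg1 (0.61), a secreted leucine-rich glycoprotein, and Bcl3 (0.36), an NF-kB cofactor. In these 6 genes each TPlp+AxL mouse lay above each AxL mouse, where 4.55% of all genes did not overlap in either direction. The 6 genes had already been picked by their calls, so this is no separate support. Several of them are also known targets of interferons or NF-kB.

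The call of Saa3 was lost in limma without TPlp+AxL 1 (adjusted p = 0.0586), TPlp+AxL 3 (0.0503), TPlp+AxL 4 (0.0806), TPlp+AxL 5 (0.0705) or AxL 5 (0.0698). The call of Pim1 was lost without TPlp+AxL 3 (0.0504), TPlp+AxL 4 (0.0601) or AxL 5 (0.0558). Of the 20 targets that did not pass, those named here were picked after their values were seen. Steap4, a metalloreductase, had 0.76 (95% interval 0.37 to 1.15, limma adjusted p = 0.0832), Vim, an intermediate filament, 0.35 (95% interval 0.09 to 0.61, limma adjusted p = 0.228) and Cebpd, a C/EBP factor, 0.34 (95% interval 0.06 to 0.61, limma adjusted p = 0.262). Intervals that held 0 included those of Gfap, the astrocyte filament (-0.02, 95% interval -0.17 to 0.13), Junb (-0.02, 95% interval -0.24 to 0.19) and Myc (0.06, 95% interval -0.06 to 0.19).

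Cytokines that induce Il6 rose in part. Of 7 measured genes in that list 3 rose and 0 fell, with a median change of 0.15. Il1b, interleukin-1 beta, had 8.97, 8.29, 8.66, 9.05 and 8.66 in TPlp+AxL, against 7.63, 7.68, 7.60, 7.62 and 7.55 in AxL. As with Il6, the AxL mice lay close together and TPlp+AxL mouse 2 was lowest of its group. Il1a, interleukin-1 alpha, rose by 0.35 (SE 0.05, limma adjusted p = 0.00963). Il17a, the cytokine of T helper 17 cells, rose by 0.28 (SE 0.05, limma adjusted p = 0.0245), with 8.26 to 8.51 in TPlp+AxL and 7.995 to 8.13 in AxL. Its call was lost in limma without TPlp+AxL 4 (adjusted p = 0.0889), TPlp+AxL 5 (0.0635), AxL 1 (0.0562) or AxL 5 (0.0704), and with the choroid plexus covariate (0.0552).

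The genes most like Il6 over the 10 mice were found among the 228 other genes past the threshold, by the root mean square difference of log2 values after the AxL mean of each gene was subtracted. They were the chemokine Cxcl10 (difference 0.19), the lymphocyte adaptor Cytip (0.21) and the GTPase Gbp7 (0.21), where the median of the candidates was 0.95. Cxcl10 had 11.01, 9.92, 11.31, 11.48 and 11.22 in TPlp+AxL, against 9.27, 9.55, 9.42, 9.52 and 9.42 in AxL, with mouse 2 again lowest in TPlp+AxL. The genes most like Socs3 were Csf2rb (0.17), a receptor chain for several myeloid cytokines, the transglutaminase Tgm2 (0.20) and the interferon-inducible Ifi202b (0.23), where the median was 0.66. Csf2rb had 10.28, 9.68, 10.16, 10.48 and 10.34 in TPlp+AxL, against 8.86, 8.77, 8.94, 9.32 and 8.86 in AxL, with AxL 4 the highest of its group as for Socs3. These genes were picked by likeness over the same mice, so high or low mice shared with Il6 or Socs3 are no separate support. The measure keeps the change between the groups, and the candidates include genes lower in TPlp+AxL. The Ifi202b call was lost in limma without TPlp+AxL 3 (adjusted p = 0.0563), TPlp+AxL 4 (0.0642), TPlp+AxL 5 (0.0584), AxL 1 (0.0537) or AxL 3 (0.0526).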

How the data were processed

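Biotinylated cRNA from whole hippocampi was hybridised to 1 array per mouse, per the labels' protocols. The submitters' processing notes name RMA as the method behind the log2 values that the authors deposited. Its software is not given in the sources used here. RMA corrects background, quantile-normalizes and summarises probes, which compresses changes of dim probe sets. Of 45101 rows, 64 controls were left out. Gene symbols came from the platform annotation, with 34945 probe sets at 1 symbol, 932 at several and 9160 at none.

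TPlp+AxL was compared with AxL in limma 3.58.1 (R 4.3.3; lmFit and eBayes, two-sided) with Benjamini-Hochberg adjustment over 45037 probe sets, at an adjusted p under 0.05, with no filter. The script was tested on simulated data. A gene outside the members was represented by its brightest probe set. Named genes were all members, the up to 4 genes per list with the largest change among those that passed, the 2 lowest in p from a list without calls, and the 3 most like Il6 or Socs3. Other names are marked in the text or are marker genes. Alternatives were other normalizations, variance models, filters, arrays left out, a replicate block and a choroid plexus covariate. Members and lists were chosen with earlier results of these data known. The number of arrays limits the precision.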

Additional observations from a re-analysis of the deposited data

Results flagged for a closer look

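Among 96 groups of 5 mice, 2 for each named probe set, 7 held 1 mouse whose gap to its nearest neighbour was over 0.71 of the group's range. Chance alone flags about 1 group in 20. TPlp+AxL 2 was the low mouse in 4 of them. It had 10.12 in the Socs3 probe set 1455899_x_at, where the next mouse had 10.63, and 8.41 in 1416576_at, where the next had 8.71. It had 9.65 in Jak2, against 9.87 in the next mouse, and 8.08 in Ifi202b, against 8.95 in the next. TPlp+AxL 4 was high in the Il6st probe set 1437303_at, at 10.14 where the next mouse had 9.80. AxL 5 was high in the Stat3 probe set 1424272_at, at 8.64 where the next mouse had 8.51, and low in Il17a, at 7.995 where the next had 8.10.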

How the results depend on the processing

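The Il6 call and the calls of the 2 brighter Socs3 probe sets held with any 1 array left out. Without the 3 arrays rich in choroid plexus markers, 0 members, 0 other pathway genes and 1 probe set in all passed in limma, with 6, 20 and 4743 at an unadjusted p under 0.05; fewer samples were compared there. With 1 array left out, 185 to 460 probe sets, 3 to 4 members and 4 to 10 other pathway genes passed. The total was 753 with array weights and 757 at an adjusted p under 0.10. Higher and lower calls numbered 340 and 66 after repeated quantile normalization and 348 and 43 after cyclic loess. Without probe sets ending in _s_at or _x_at, 2 members passed. Il6 was not among the brighter probe sets kept when the dimmest 40 percent were left out. Dim signals limit what can be measured, as RMA gives no background call.

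Same-numbered deviations from the group means correlated at -0.22 to 0.36. Only for replicate 2 did the same number exceed the highest other number, at 0.36 against 0.16. These correlations cannot show whether or not replicate numbers pair the mice. With a replicate block 241 probe sets and 4 members passed, and Saa3 (adjusted p = 0.0832), Il1a (0.0564) and Il17a (0.0600) no longer passed in limma.

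Small changes turned sign, and the cause was not tested. After median subtraction Il6ra 1422270_a_at was -0.017, Il6st 1460295_s_at -0.025, Lifr 1450207_at -0.0039 and Il31ra -0.0086. After repeated quantile normalization the same 4 were -0.0043, -0.018, -0.0086 and -0.012, and Socs7 was 0.0067. After cyclic loess Il6st 1460295_s_at was -0.013, Lifr 1450207_at -0.0010, Il31ra -0.011 and Socs7 0.00046. With array weights Lif 1421207_at was 0.029, Il6ra 1422270_a_at -0.0029, Il6st 1460295_s_at -0.020 and Lifr 1454984_at -0.014. Without the 3 arrays Il6ra 1452416_at was -0.014, Il6st 1460295_s_at -0.0054 and Lifr 1450207_at -0.026. With 1 array left out, Il6st 1460295_s_at ran from -0.054 to 0.048, Il6st 1421239_at from -0.058 to 0.00021, Lifr 1454984_at from -0.021 to 0.084, Lif 1421207_at from -0.11 to 0.073 and Il6ra 1422270_a_at from -0.026 to 0.037.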
